A study of Cunninghamia lanceolata with 3 samples.

Results

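Jasmonates and brassinosteroids are plant hormones made from lipids. Jasmonates are made from a polyunsaturated fatty acid released from plastid membranes, which a lipoxygenase oxygenates, allene oxide synthase and cyclase turn into 12-oxophytodienoate (OPDA), and a reductase and peroxisomal acyl-CoA oxidases shorten to jasmonic acid. Brassinosteroids are made from plant sterols and are sensed at the cell surface by receptor kinases of the BRI1 family, which act with co-receptor kinases of the BAK1 and SERK family and hold back the GSK3/shaggy kinases. In Arabidopsis, jasmonate is known for wound and defence responses and has been linked to cambial growth, and brassinosteroid signalling is known for its part in xylem formation.

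The unigenes described here are the 10 with the most reads among 37 whose best protein hit names a lipoxygenase, allene oxide, OPDA, jasmonate, brassinosteroid, BRI1, brassinazole or steroid 5-alpha term, out of 53590 unigenes (assembled transcript sequences) with a read. The members were chosen by their measured reads, summed over all 3 libraries, so the high abundance of the members is a result of the choice. They took 8531 of the 9592 reads on the 37 matches (88.9%). The last member in, the allene oxide synthase Unigene51313, had 344 summed reads, and the first outside, the lipoxygenase Unigene44197, had 244. The brassinosteroid receptor Unigene39663 and the lipoxygenase Unigene928 followed with 110 and 80. Of the 37 matches, 13 had fewer than 20 reads in all. Of the 10 members, 4 carry names of jasmonate synthesis and 6 of brassinosteroid perception and response. None of the 37 was described as a brassinazole-resistant factor, an allene oxide cyclase or a steroid 5-alpha reductase.

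The study compared messenger RNA of vascular cambium from Chinese fir (Cunninghamia lanceolata, a conifer) in the dormant, reactivating and active stages, with 1 library each. Per the labels, the trees were 16 years old, 15 m tall and 12 cm across and grew under natural conditions, and the tissue came from cryosections cut parallel to the stem surface. The labels do not give the number of trees per library. Depth was even, at 5.84 M to 5.85 M uniquely mapped reads a library. With 1 library per stage no difference has a replicate check and no test between stages was possible. Levels are in RPKM, reads scaled by unigene length in kilobases and by library total, and the ranges in parentheses are exact 95% intervals that cover the counting of reads only. Each unigene is called after its best protein hit, mostly from another plant, and no function was tested here.

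**Figure D1:**
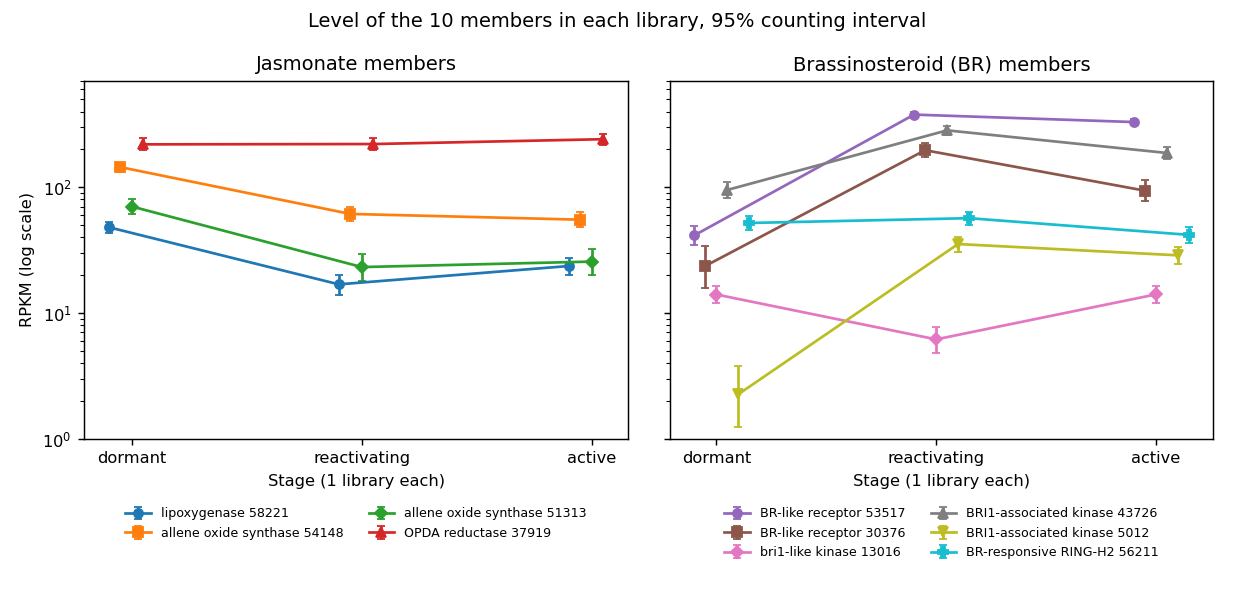
RPKM of the 4 jasmonate members (left) and the 6 brassinosteroid members (right) in the dormant, reactivating and active libraries, on a log scale, with bars for the 95% counting interval, lines joining the libraries and unigene numbers in the legend. The lipoxygenase and both allene oxide synthases are highest in the dormant library, the OPDA reductase is level near 219 to 241 RPKM, and the receptor Unigene53517 is at 41.5 RPKM in the dormant library against 379 and 330 in the others.

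The 4 members with names of jasmonate synthesis did not move as a block. The lipoxygenase and both allene oxide synthases were lower in the reactivating than in the dormant library, while the OPDA reductase was level. The lipoxygenase Unigene58221, of the family that adds oxygen to the fatty acid at the start of the route, had 48.1, 16.9 and 23.6 RPKM in the dormant, reactivating and active libraries (344, 121 and 169 reads). It was highest in the dormant library, 2.84-fold lower (2.30 to 3.53) in the reactivating than in the dormant library and 2.03-fold lower (1.69 to 2.46) in the active than in the dormant library. Between the active and the reactivating library its ratio was 1.40 (1.10 to 1.78). Unigene58221 carried a gene ontology process term for fatty acid biosynthesis and none for jasmonate. Only its family name links it to the route, and whether it acts there was not tested.

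Allene oxide synthase, a P450 that works without oxygen or an electron donor, turns the lipoxygenase product into an unstable allene oxide. Unigene54148 had 145, 61.4 and 55.2 RPKM in the dormant, reactivating and active libraries (537, 228 and 205 reads). Unigene51313 had 70.3, 23.2 and 25.6 RPKM (203, 67 and 74 reads). Both were highest in the dormant library. Unigene54148 was 2.36-fold lower (2.01 to 2.76) in the reactivating than in the dormant library, and Unigene51313 was 3.03-fold lower (2.29 to 4.06). The active library stayed at these low levels, 2.62-fold lower (2.22 to 3.09) than the dormant library for Unigene54148 and 2.74-fold lower (2.09 to 3.63) for Unigene51313.

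The putative 12-oxophytodienoate reductase Unigene37919 carries the name of the rice protein OPR13. In Arabidopsis only some reductases of this family act in jasmonate synthesis, so the name alone does not place it in the route. It had 219, 221 and 241 RPKM in the dormant, reactivating and active libraries (326, 328 and 358 reads). Its ratio was 1.01 (0.860 to 1.18) for reactivating against dormant and 1.09 (0.938 to 1.27) for active against reactivating. It had the highest level of the 10 members in the dormant library and was also the second highest in the active library.

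The brassinosteroid members split by gene, with the largest differences among the receptor kinases. The unigene with the most reads of all 10, Unigene53517, matches a brassinosteroid-like receptor of Norway spruce. It also carries a gene ontology (GO) term for xylem and phloem pattern formation, held by 22 of all 53590 unigenes. It had 41.5, 379 and 330 RPKM in the dormant, reactivating and active libraries (145, 1322 and 1152 reads). The low library was the dormant one. The ratio was 9.12 (7.67 to 10.9) for reactivating against dormant and 7.95 (6.69 to 9.52) for active against dormant, whereas the active library was 1.15-fold lower (1.06 to 1.24) than the reactivating one.

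Unigene30376 has the same best hit over 202 bases. It had 23.7, 197 and 94.0 RPKM in the dormant, reactivating and active libraries (28, 233 and 111 reads). It was lowest in the dormant library and peaked in the reactivating one, at 8.32-fold (5.61 to 12.8) the dormant level. The active library was 2.10-fold lower (1.67 to 2.65) than the reactivating one, and 3.97-fold higher (2.60 to 6.24) than the dormant one.

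Unigene13016, named as a bri1-type serine/threonine kinase, went the other way. BRI1 is the main brassinosteroid receptor of Arabidopsis. The unigene had 14.0, 6.17 and 14.0 RPKM in the dormant, reactivating and active libraries (166, 73 and 166 reads). Its low library was the reactivating one, 2.27-fold lower (1.72 to 3.04) than the dormant library, and the active library was 2.28-fold higher (1.72 to 3.04) than the reactivating one. The active and the dormant library had equal reads, with an interval of 0.802 to 1.25 for their ratio. Both of these differences have intervals that reach below 2-fold, as do those of Unigene58221 between active and dormant and of Unigene30376 between active and reactivating.

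A pair of members is named as the BRI1-associated receptor kinase, the co-receptor that in Arabidopsis joins the receptor once the hormone is bound. Unigene43726 had 95.3, 284 and 187 RPKM in the dormant, reactivating and active libraries (175, 521 and 344 reads). It was 2.98-fold higher (2.50 to 3.55) in the reactivating than in the dormant library, and 1.51-fold lower (1.32 to 1.74) in the active than in the reactivating library. Unigene5012 had 2.26, 35.4 and 28.8 RPKM (14, 219 and 178 reads). It was nearly absent from the dormant library, where its reads covered 50.05% of its length against 97.6% (reactivating) and 98.6% (active) in the other libraries. It was 15.6-fold higher (9.12 to 29.1) in the reactivating and 12.7-fold higher (7.39 to 23.8) in the active than in the dormant library, the largest ratios among the members.

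The remaining member, Unigene56211, matches the brassinosteroid-responsive RING-H2 protein of Arabidopsis, a RING finger protein whose transcript is lowered by brassinosteroid in that species. It had 52.0, 56.8 and 41.8 RPKM in the dormant, reactivating and active libraries (250, 273 and 201 reads). Its ratio was 1.09 (0.916 to 1.30) for reactivating against dormant, and the active library was 1.36-fold lower (1.13 to 1.64) than the reactivating one. All 3 libraries lay within 2-fold.

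**Figure D2:**
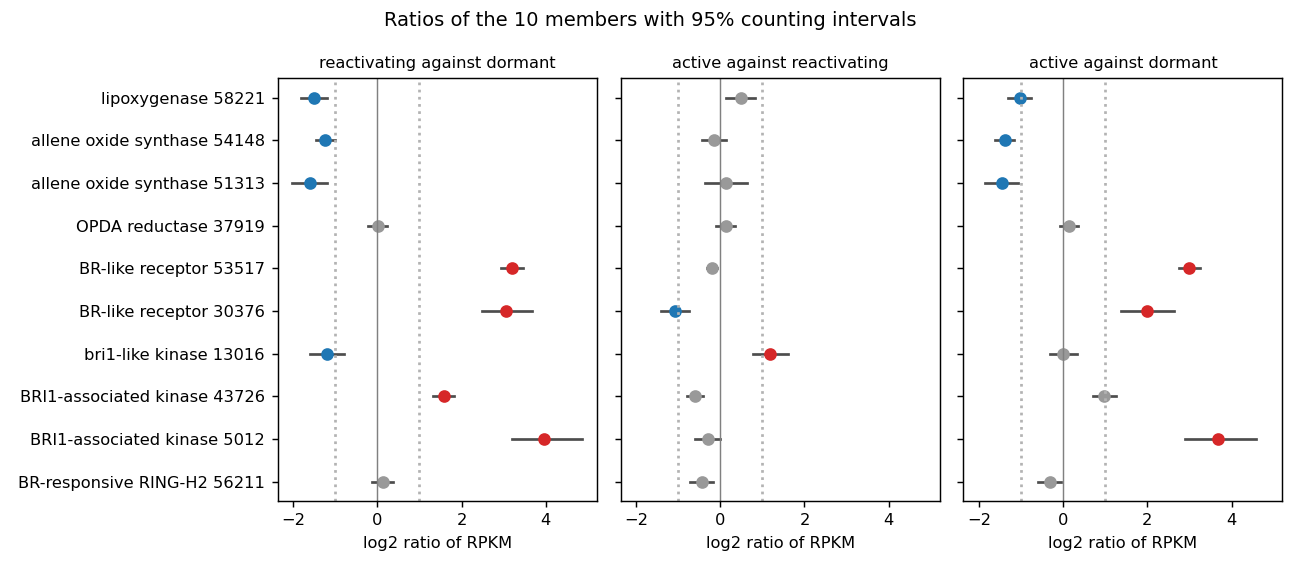
log2 ratio of RPKM of the 10 members in 3 comparisons, the first-named library over the second, with 95% counting intervals as lines. Red points are at least 2-fold higher, blue points at least 2-fold lower and grey points within 2-fold, whose limits are the dotted lines. In the reactivating library 4 members are higher and 4 lower than in the dormant library, and 8 of the 10 stay within 2-fold between the active and the reactivating library.

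In the reactivating against the dormant library, 4 of the 10 members were at least 2-fold higher and 4 at least 2-fold lower, beside 16.9% higher and 13.8% lower among all 36274 unigenes that passed the minimum of 20 reads summed over the compared libraries. Their median log2 ratio was 0.07, beside 0.07 over all unigenes, because the directions cancel. In the active against the reactivating library 1 was higher and 1 lower, beside 6.76% and 5.14% of all. In the active against the dormant library 3 were higher and 3 lower, beside 18.1% and 13.8% of all. The comparisons share libraries, so their counts are not independent of each other. Over the 3 stages, 3 members stood at least 2-fold above both other libraries in the dormant one, beside 8.1% of the 31946 unigenes with at least 50 reads. In the same library 3 members (Unigene53517, Unigene5012 and Unigene30376) stood at least 2-fold below both others, beside 12.9%. In the reactivating library 1 member (Unigene30376) was highest, beside 1.37%, and 1 (Unigene13016) lowest, beside 2.73%. None of the 10 was highest or lowest in the active library by this measure, beside 3.16% and 2.08%. The choice by summed reads used these same libraries, so a unigene could become a member through the libraries where it was high. Unigene5012 had only 14 dormant reads of 411 in all, and Unigene51313 had 203 dormant reads of 344. The fold and stage counts of the members may thus follow partly from the choice. The shares of all unigenes, which were not chosen this way, are given for description only.

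The order of the members by RPKM changed with the stage. In the dormant library Unigene37919, Unigene54148 and Unigene43726 led, and the intervals of Unigene56211 (45.8 to 58.9 RPKM), Unigene58221 (43.1 to 53.4) and Unigene53517 (35.0 to 48.9) overlapped. In the reactivating library Unigene53517 led with 379 RPKM (358 to 399), above Unigene43726 with 284 (260 to 309). The next in that library were Unigene37919 with 221 (197 to 246) and Unigene30376 with 197 (173 to 224), whose intervals overlap. In the active library Unigene53517 again led, with 330 RPKM (311 to 350), followed by Unigene37919 with 241 (217 to 268). The bri1-type Unigene13016 was the lowest member in the reactivating and active libraries. Summed over the 4 jasmonate members the level was 482, 322 and 346 RPKM in the dormant, reactivating and active libraries, and over the 6 brassinosteroid members it was 229, 958 and 696 RPKM. Like-named unigenes could be fragments of the same transcript, so summed RPKM, here and below, can count a transcript more than once. The members of each sum did not all change in the same direction.

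Beyond the names, 4 members (Unigene53517, Unigene43726, Unigene5012 and Unigene30376) shared the GO terms for membrane proteins and for protein modification, terms held by 2.31% and 1.90% of all unigenes. The lipoxygenase and both allene oxide synthases shared the term for fatty acid biosynthesis, held by 0.162% of all, and both allene oxide synthases a plastid term. Unigene13016 had no GO term. Lengths ran from 202 bases (Unigene30376) to 2023 (Unigene13016), so most members are fragments of a coding sequence, and like-named ones could belong to 1 transcript or to close copies. Fragments of 1 transcript would keep 1 ratio of levels, within counting error, if their reads map equally well. For the brassinosteroid-like receptors, Unigene53517 over Unigene30376 was 1.75 (1.16 to 2.73), 1.92 (1.67 to 2.22) and 3.51 (2.89 to 4.31) in the dormant, reactivating and active libraries. For the BRI1-associated kinases, Unigene43726 over Unigene5012 was 42.2 (24.5 to 78.7), 8.02 (6.84 to 9.44) and 6.52 (5.42 to 7.86). For the receptors only the active library had an interval apart from the others, and for the kinases only the dormant library. The intervals of the other libraries overlapped in each pair. For the allene oxide synthases, whose best hits differ, Unigene54148 over Unigene51313 was 2.06 (1.75 to 2.43), 2.65 (2.01 to 3.53) and 2.16 (1.64 to 2.85), with intervals that overlap in all 3 libraries.

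**Figure D3:**
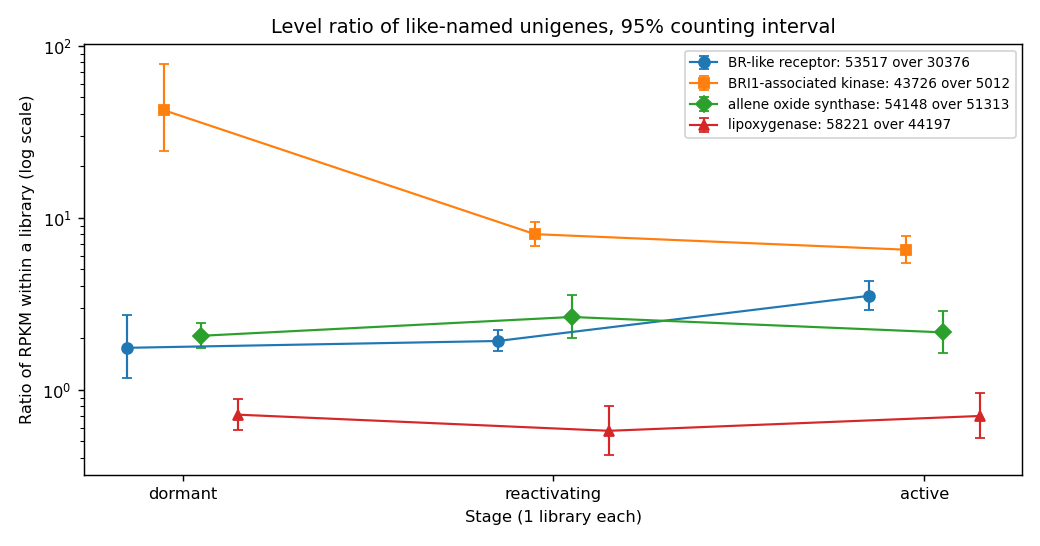
Ratio of the RPKM of like-named unigenes within each library, on a log scale, with 95% counting intervals. The ratio of the BRI1-associated kinases is 42.2 in the dormant library against 8.02 and 6.52 in the others, and that of the allene oxide synthases stays between 2.06 and 2.65. The lipoxygenase pair sets Unigene58221 over Unigene44197.

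Outside the members, 20 unigenes of the jasmonate lists had enough reads for reactivating against dormant, of which 3 were higher and 2 lower, beside 16.9% and 13.8% of all unigenes. All 4 omega-3 desaturases, which make the polyunsaturated fatty acid, stayed within 2-fold in each comparison. The most abundant, Unigene58412, had 446, 426 and 290 reads across the dormant, reactivating and active libraries, and the next, Unigene46271, had 94, 91 and 83. All 3 acyl-CoA oxidases, of the peroxisomal shortening step, also stayed within 2-fold, with 332, 357 and 386 summed reads. The larger ones, Unigene53433 and Unigene43176, had 192, 199 and 229 reads and 117, 134 and 125 reads. A second OPDA reductase, Unigene21019, was listed with 3 dormant reads and 0 in both other libraries. Of the 19 lipoxygenases outside the members 8 had enough reads for reactivating against dormant, of which 2 were higher and 2 lower (median log2 ratio -0.57, beside 0.07 over all unigenes). The second most abundant of the family, Unigene44197, had 126, 55 and 63 reads, and it was 2.29-fold lower (1.66 to 3.21) in the reactivating than in the dormant library. The lipoxygenase Unigene531 had 11, 45 and 18 reads, 4.09-fold higher (2.08 to 8.77) in the reactivating than in the dormant library. A bacterial-induced type lipoxygenase, Unigene11872, had 40, 21 and 7 reads, and it was 5.71-fold lower (2.53 to 15.1) in the active than in the dormant library.

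In jasmonate response, 4 unigenes match JAMYC, a jasmonate-linked transcription factor of yew, and the largest of them, Unigene17333, had 228, 212 and 237 reads across the dormant, reactivating and active libraries. The next, Unigene18216, had 250, 169 and 224 reads. All 4 stayed within 2-fold in each comparison. The P450 Unigene25367, named CYP94C9, of a family that oxidises and so inactivates the jasmonate-isoleucine conjugate in Arabidopsis, had 32, 74 and 49 reads, and it was 2.31-fold higher (1.51 to 3.62) in the reactivating than in the dormant library. A jasmonate O-methyltransferase, Unigene33313, had 3, 15 and 17 reads. Over the jasmonate lists together, members included, 3 of 24 measured unigenes were higher and 5 lower in the reactivating than in the dormant library, beside 16.9% and 13.8% of all. In the active against the dormant library 1 of 25 was higher and 6 lower, beside 18.1% and 13.8% of all.

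On the brassinosteroid side, 7 of 12 sterol precursor and 4 of 7 co-receptor unigenes passed 2-fold upward in reactivating against dormant cambium, beside 16.9% of all unigenes. Of the 4 steroid P450s with enough reads and the 3 GSK3/shaggy kinases 0 passed 2-fold in that comparison. All 12 sterol precursor unigenes, for squalene synthase, cycloartenol synthase, sterol methyltransferase, the 14-demethylase and the delta14 reductase, had a ratio above 1 in the reactivating against the dormant library, 7 of them at least 2-fold and 5 within 2-fold (median log2 ratio 1.37). These enzymes also make the sterols of membranes. Squalene synthase Unigene14823 had 120, 318 and 183 reads across the dormant, reactivating and active libraries and was 2.65-fold higher (2.14 to 3.30) in the reactivating than in the dormant library. The 14-demethylase Unigene1772 had 35, 129 and 75 reads, 3.69-fold higher (2.52 to 5.52) in the reactivating than in the dormant library. Another 14-demethylase, Unigene28047, had 34, 104 and 86 reads, and it was 2.53-fold higher (1.68 to 3.89) in the active than in the dormant library. Cycloartenol synthase Unigene6124 had 163, 317 and 265 reads, a ratio of 1.94 (1.60 to 2.36) for reactivating against dormant. The most abundant unigene of the list, the sterol methyltransferase Unigene39522, had 227, 308 and 350 reads. The sterol methyltransferases Unigene39522 and Unigene39472 share a best hit and their length, so reads of close copies could be split between them. The 14-demethylase unigenes ran from 164 bases (Unigene1120) to 423 (Unigene14104), and the squalene synthases share a name. Like-named unigenes of this list could be fragments of 1 transcript or close copies, so the 12 are not known to be separate genes.

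Of the steroid P450s that make brassinosteroids from sterols, 6 unigenes were found, with 131, 92 and 84 summed reads across the dormant, reactivating and active libraries. CYP90D1-like Unigene34905 had 52, 28 and 8 reads, and it was 6.49-fold lower (3.06 to 15.8) in the active than in the dormant library. The CYP90A20-like Unigene50079 had 33, 25 and 26 reads. At this depth, small differences in the P450s were not detectable.

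Among 9 co-receptor unigenes 7 had enough reads, of which 4 were higher and 0 lower in the reactivating than in the dormant library, beside 16.9% and 13.8% of all. Of these 4, 2 are the members Unigene43726 and Unigene5012, which leaves 2 of 5 outside the members. SERK1-like Unigene6712 had 55, 49 and 32 reads and stayed within 2-fold. SERK1-like Unigene57454, of the kinase family that BAK1 belongs to, had 272, 576 and 546 reads across the dormant, reactivating and active libraries, 2.12-fold higher (1.83 to 2.45) in the reactivating than in the dormant library. Unigene55520, a SERK-like protein, had 3, 56 and 56 reads, a ratio of 18.7 (6.07 to 93.2) for reactivating against dormant. SERK kinases also serve receptors other than BRI1. Among the receptors outside the members, the bri1-type Unigene1192 had 4, 7 and 40 reads, and it was 5.72-fold higher (2.54 to 15.1) in the active than in the reactivating library. Of the GSK3/shaggy kinases, which in Arabidopsis include negative regulators of brassinosteroid signalling, the largest was Unigene57002, with 440, 400 and 362 reads across the dormant, reactivating and active libraries, followed by Unigene38735 with 300, 222 and 282. All 3 stayed within 2-fold in each comparison.

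Over the brassinosteroid lists together, 13 of 31 measured unigenes were higher and 1 lower in the reactivating than in the dormant library. Outside the members 9 of 25 were higher and 0 lower, beside 16.9% and 13.8% of all unigenes. Of these 9, 7 were sterol precursor unigenes, whose enzymes also make membrane sterols, and 2 were co-receptors. The count outside the members thus rests mostly on the sterol list. In the active against the reactivating library 2 of 31 were higher and 2 lower, near the 6.76% and 5.14% of all. In the active against the dormant library 15 of 31 were higher and 1 lower, beside 18.1% and 13.8% of all, but with the interval entirely past 2-fold 5 were higher.

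**Figure D4:**
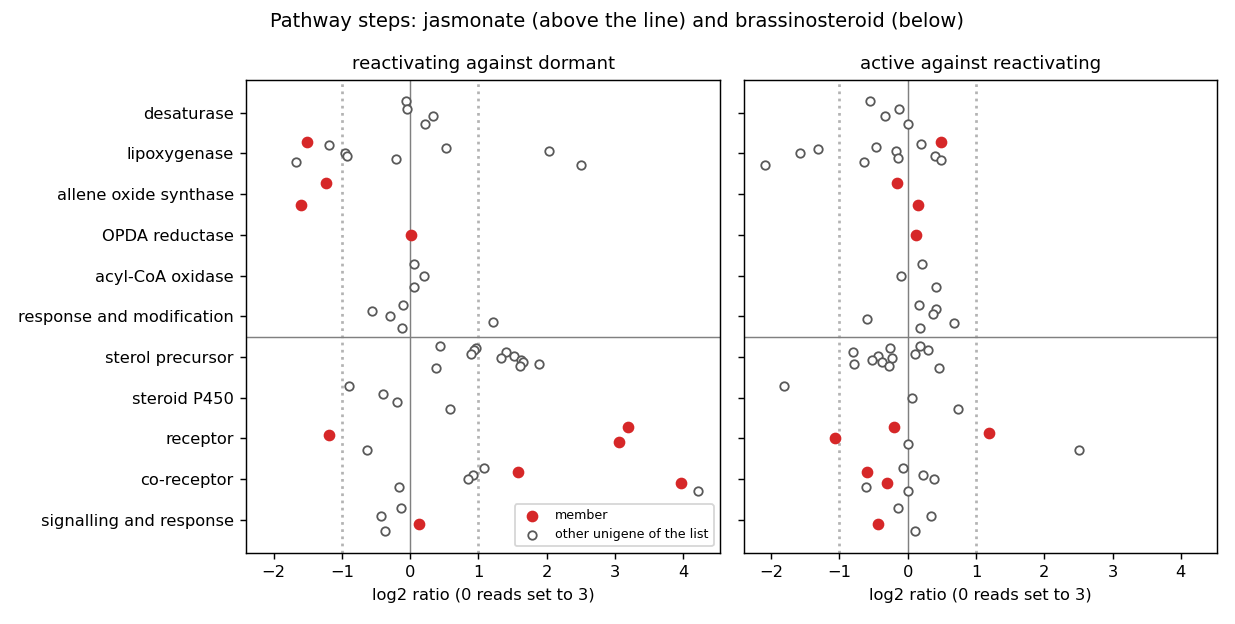
log2 ratio of each measured unigene (20 or more reads summed over the compared libraries) by pathway step, for reactivating against dormant (left) and active against reactivating (right), with the 10 members in red and other unigenes of the lists as open circles. Dotted lines mark 2-fold. On the left the allene oxide synthases lie below -1 and all 12 sterol precursor unigenes above 0, and on the right most points lie within 2-fold.

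A further group, formed after the data were seen, holds the 44 unigenes with the GO terms for a dioxygenase that adds both oxygen atoms and for fatty acid or lipid biosynthesis, of which 16 are named lipoxygenase and 28 have another best hit, 27 of these with no protein name. Whether these are lipoxygenases was not tested. The named ones summed to 195, 142 and 131 RPKM in the dormant, reactivating and active libraries and the others to 1396, 1503 and 2806 RPKM. The sum of the others in the active library rests on 3 unigenes, Unigene11908, Unigene1047 and Unigene9901, which summed to 696, 906 and 2149 RPKM. The remaining 25 summed to 699, 597 and 657 RPKM. Of the 3, only Unigene9901 carries a GO process term naming jasmonate. Unigene53328, Unigene12481 and Unigene58526, among the 25, carry such a term too. In the active against the reactivating library 5 of 20 measured others were higher and 0 lower, beside 6.76% and 5.14% of all unigenes. Unigene11908, of unknown function, had 972, 1365 and 3163 reads, and the active library was 2.32-fold higher (2.18 to 2.47) than the reactivating one. Unigene1047, likewise unknown, had 1000, 1207 and 2855 reads, and it was 2.37-fold higher (2.21 to 2.54) in the same comparison. Unigene12235 had 319, 40 and 59 reads, and it was 7.98-fold lower (5.73 to 11.4) in the reactivating than in the dormant library. A second group, also formed after the data were seen, holds the 50 unigenes with a GO process term naming jasmonate. For reactivating against dormant 4 of 36 measured were higher and 7 lower, beside 16.9% and 13.8% of all. For active against reactivating 9 of 38 were higher and 2 lower, beside 6.76% and 5.14%. For active against dormant 9 of 38 were higher and 5 lower, beside 18.1% and 13.8%. Its most read unigene, Unigene59352, had 2259, 483 and 522 reads.

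**Figure D5:**
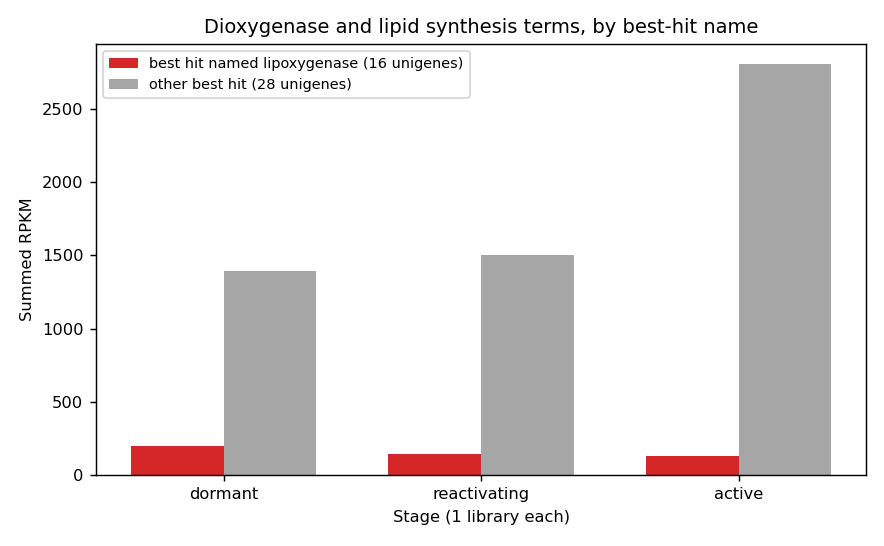
Summed RPKM in each library of unigenes that carry both the dioxygenase and the lipid biosynthesis term, split into the 16 with a best hit named lipoxygenase and the 28 with another best hit. The group with another best hit has 1396, 1503 and 2806 RPKM, of which 3 unigenes give 2149 in the active library, and without these 3 it has 699, 597 and 657. The named group has 195, 142 and 131.

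By stage shares of RPKM over the 3 libraries, the unigenes closest to the receptor Unigene53517 among 2431 with a protein name and at least 200 reads were an autoinhibited H+ ATPase (Unigene51698, distance 0.0091), a glycosyl hydrolase-like protein (Unigene56471, 0.0092) and a beta-D-glucan exohydrolase (Unigene52406, 0.015). Those closest to the OPDA reductase Unigene37919 were a phytochrome (Unigene18189, 0.0041), an EDS1 protein (Unigene30193, 0.0041) and a zinc finger protein (Unigene58757, 0.0053). The likeness rests on 3 values a unigene.

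The tissue label was set against marker unigenes. Cambium names (class III HD-Zip, clavata-type, aintegumenta-like) had 50 unigenes summing to 1883, 2699 and 3430 RPKM in the dormant, reactivating and active libraries, with 3, 3 and 4 of them at 0. Of 40 measured, 11 were higher and 5 lower in the reactivating than in the dormant library. In that comparison 16.9% of all unigenes were higher and 13.8% lower, the shares to set beside each of its marker counts. Differentiating xylem names, such as laccase, had 36 unigenes summing to 1948, 1347 and 5044 RPKM, with 7, 4 and 0 at 0, and 8 of 22 measured were lower and 10 higher in the reactivating than in the dormant library. The 3 sucrose transporters, as phloem markers, summed to 133, 28.9 and 34.2 RPKM, none at 0. Of them 2 were lower in the reactivating than in the dormant library and 1 was within 2-fold. Photosynthetic names had 26 unigenes summing to 233, 199 and 184 RPKM, with 0, 1 and 1 at 0, and resin and bark names 23 unigenes summing to 120, 234 and 84.9 RPKM, with 5, 9 and 7 at 0. In the reactivating against the dormant library 0 of 14 measured photosynthetic unigenes were higher and 4 lower. Of 6 measured resin and bark unigenes 2 were higher and 1 lower. In the active against the reactivating library, 6.76% of all unigenes were higher and 5.14% lower. There 16 of 27 xylem, 2 of 38 cambium and 1 of 11 photosynthetic unigenes were higher and 0 lower. Of 6 resin and bark unigenes 4 were lower and 0 higher, and the 3 phloem unigenes stayed within 2-fold. In the active against the dormant library 20 of 28 xylem unigenes were higher and 1 lower, beside 18.1% and 13.8% of all. For the same libraries 11 of 40 cambium unigenes were higher and 4 lower, and 0 of 14 photosynthetic unigenes higher and 4 lower. Of 6 resin and bark unigenes 2 were higher and 3 lower, and of 3 phloem unigenes 0 were higher and 2 lower. The part of other cell types in the values above was not tested, and in bulk tissue fewer cells of a type and less RNA per cell cannot be told apart.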

How the data were processed

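RNA-seq libraries of cambium, 1 per stage, were used as deposited. The deposited tables give, per the file headers, a whole count of uniquely mapped reads per unigene, not normalised. They also give the RPKM, which the authors scaled by unigene length and by the library total named in the header, and the coverage in percent of the unigene's length. Per the labels' protocols, oligo(dT)-selected RNA was cut into fragments and primed with random hexamers, and the PCR-enriched libraries were run on an Illumina HiSeq. For the mapper and the assembler, no name is given in the sources used here, nor how reads shared by unigenes were handled. No strand-specific step is described. No sequences are shown, because none were used here.

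Unigenes that a table does not list counted as 0 reads there. Ratios were taken between libraries from the RPKM, with exact 95% intervals (Clopper-Pearson) from the binomial split of the reads between both libraries. Reads of PCR copies are not independent molecules, so the intervals cover counting error only. Where a library had 0 reads, 3 reads were used as the floor. Higher and lower mean at least 2-fold with 20 or more reads summed over the compared libraries. The members and lists were chosen with earlier results of these data known. There were 11 pathway lists and 5 marker lists, matched to the best-hit description, and several patterns were corrected or extended after descriptions and values were seen. Named are all 10 members, the next 3 matches, per pathway list the 2 most abundant unigenes and those with the largest ratio each way past 2-fold at 100 or more reads, and, for the member with most reads of each hormone, the 3 unigenes with the closest stage shares at 200 or more reads. Both GO-term groups and their unigenes, and Unigene55520, Unigene531, Unigene11872, Unigene33313, Unigene1192, Unigene14823, Unigene39472 and Unigene6712, were chosen after their values were seen. The calls and intervals were run on simulated reads drawn with counting error only, which is what the intervals assume. The simulation held no variation between trees, PCR copies or mapping, so it checks the calculation and not the stage differences. Alternatives were another minimum of reads or none, a threshold of 4-fold, intervals that lie entirely past 2-fold, unigenes of at least 500 bases, 1 read added, other scaling factors and ranking by RPKM. Python 3.11.15, scipy 1.17.1, pandas 2.3.3 and R 4.3.3 were used, with edgeR 4.0.16 and DESeq2 1.42.0 for scaling factors only.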

Additional observations from a re-analysis of the deposited data

How the results depend on the processing

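All 10 members kept their calls in all 3 comparisons under edgeR's TMM factors, DESeq2's size factors and 1 read added to both libraries. With the whole interval beyond 2-fold, 4 members stayed higher and 3 lower in the reactivating against the dormant library (Unigene13016 lost), 3 higher and 2 lower in the active against the dormant library (Unigene58221 lost), and 0 either way in the active against the reactivating library. At 4-fold, 3 members stayed higher and 0 lower in the reactivating against the dormant library, 2 and 0 in the active against the dormant library, and 0 either way in the active against the reactivating library, so all lower calls, the 3 jasmonate members among them, were lost. Ranked by summed RPKM, 8 of the 10 members stayed. For all other counts, main values are followed by those with no minimum of reads, at least 100 reads, a 4-fold ratio, the interval wholly beyond 2-fold, and at least 500 bases. All unigenes had, in reactivating against dormant, 6136 higher (9880, 3129, 2456, 3202 and 2328) and 5014 lower (9419, 2465, 1728, 2254 and 1865). All unigenes had, in active against reactivating, 2439 higher (6571, 1004, 774, 961 and 901) and 1853 lower (4998, 536, 245, 311 and 431). All unigenes had, in active against dormant, 6560 higher (11191, 3486, 2843, 3666 and 2600) and 5005 lower (8488, 2583, 1637, 2306 and 1767). The jasmonate lists had, in reactivating against dormant, 3 higher (7, 1, 2, 1 and 0) and 5 lower (7, 4, 0, 3 and 2). The jasmonate lists had, in active against reactivating, 0 higher (3, 0, 0, 0 and 0) and 3 lower (3, 0, 1, 0 and 1). The jasmonate lists had, in active against dormant, 1 higher (7, 0, 1, 0 and 0) and 6 lower (7, 3, 1, 3 and 3). The brassinosteroid lists had, in reactivating against dormant, 13 higher (13, 12, 4, 11 and 7) and 1 lower (5, 1, 0, 0 and 1). The brassinosteroid lists had, in active against reactivating, 2 higher (4, 1, 1, 1 and 1) and 2 lower (4, 1, 0, 0 and 0). The brassinosteroid lists had, in active against dormant, 15 higher (15, 13, 4, 5 and 7) and 1 lower (3, 0, 1, 1 and 0). With TMM factors 7, and with DESeq2's size factors 6, jasmonate unigenes were lower in the reactivating against the dormant library. The causes of these shifts were not tested, beyond that a stricter setting tests or passes fewer unigenes. Without a minimum of reads, the floor of 3 reads can also reverse a direction. Unigene11852 and Unigene688, with 1 reactivating and 0 dormant reads, counted there as lower. Unigene7400, with 0 reactivating reads and 1 dormant read, counted as higher. The counts without a minimum hold such reversed calls and do not measure direction. The other scalings shifted the median log2 ratio of all unigenes by less than 0.1. No paired analysis was possible because each stage has 1 library, and for the same reason no library could be left out. Depth limits the weakly read unigenes, of which 13 of the 37 matches had fewer than 20 reads.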
